A study of Mus musculus with 15 samples.

Results

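The comparison set the 3 arrays of cultures given GDNF and GFRalpha1 back for 8 h against the 3 arrays of cultures that never lost them. The titles of the samples chose these 6 arrays of the 15 in the series. All RNA came from cultures enriched for mouse spermatogonial stem cells, set up from C57BL/6 males at 6 days of age, and all were grown in defined medium without serum. Maintained cultures had GDNF (glial cell line-derived neurotrophic factor), its soluble co-receptor GFRalpha1 and bFGF (basic fibroblast growth factor) throughout. The cultures of the 8 h group first spent 18 h without GDNF and GFRalpha1 and then received both again. Withdrawal cultures, measured at the end of those 18 h, and cultures at 2 and 4 h of replacement, each also 3 arrays, are used here only to show where a gene stood on the way. Whether replicates came from separate cultures is not given in the labels, so p-values measure the spread between arrays, which may be technical only. The 8 h cultures also had more time in culture and more handling than the maintained ones, and these cannot be told apart from the withdrawal itself.

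GDNF is secreted by somatic cells of the testis and keeps spermatogonial stem cells dividing without differentiating. It binds GFRalpha1 and activates the receptor tyrosine kinase RET, which signals through RAS and ERK, PI3 kinase and AKT, and SRC family kinases. In these cells the pathway sustains transcription factors of self-renewal such as Bcl6b, Etv5, Id4 and Lhx1, and pulses of ERK signalling switch on immediate-early genes and the genes of its own feedback inhibitors. Testis cultures can also hold somatic cells, among them fibroblasts, Sertoli, Leydig and peritubular cells, macrophages and mast cells. In an RNA pool, fewer cells of a type and less RNA per cell cannot be told apart.

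Values are MAS5 signal in arbitrary units, and their trimmed mean in the files is 150 on every array. The median signal still differed, at 45.7 to 48.2 on the maintained arrays and 50.9 to 55.8 on the 8 h arrays. Pearson's r between the 6 arrays, across probe sets, lay between 0.951 and 0.971, and the ratio of the 3' to the 5' beta-actin control ran from 1.10 to 1.34 on them. Withdrawal replicate 3 stood apart at 2.77 in that ratio, a sign of RNA quality. It enters the comparison through the spread that all groups share. It also enters through the filter on dim probe sets and the choice of probe set, which used all 15 arrays. Differences are limma estimates of log2(signal + 16), with Benjamini-Hochberg p-values taken over all 13083 genes tested and a call at an adjusted p under 0.05. For 3 against 3, the smallest p of an exact rank test is 0.1. With 3 arrays a group, the median 95% interval reached 0.40 to either side of a log2 difference.

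At 8 h the cultures differed from maintained ones in 63 of the 13083 genes (0.482%), 36 higher (0.275%) and 27 lower (0.206%). Of these, 35 (0.268%) differed at least 2-fold, 23 up (0.176%) and 12 down (0.0917%). Before the factors came back, 1052 genes (8.04%) differed from the same maintained arrays, 551 higher (4.21%) and 501 lower (3.83%). Between 8 h and withdrawal, 313 genes (2.39%) were called, 170 higher (1.3%) and 143 lower (1.09%) at 8 h. These 3 comparisons share arrays and are not independent. At an unadjusted p under 0.05, 2230 genes (17%) differed between 8 h and maintained cultures, and in 3479 (26.6%) the 3 arrays of one group all lay above the 3 of the other, so a gene that missed the call is not shown to have recovered. The count of 63 became 154 without maintained replicate 1, 26 without replicate 2 and 13 without replicate 3, and 27, 15 and 13 without replicates 1, 2 and 3 of the 8 h group. Without withdrawal replicate 3 it became 276 (2.11%), 135 higher (1.03%) and 141 lower (1.08%), and these included all 63. In the same fit withdrawal against maintained cultures gave 5.04% (2.32% higher, 2.71% lower) and 8 h against withdrawal 2.7% (1.74% higher, 0.963% lower). With arrays shifted to 1 median, which moved the median difference of all genes from 0.06 to -0.08, 18 genes were higher and 65 lower, so the split between rises and falls depends on the scaling. In that fit 45 of the 63 kept the call. Those that lost it were all rises, among them Tpsb2, Cp, Svep1, Egr4, Sohlh1, Rragd, Camk2n1, Gstm1 and Gstm2. The call of 8 genes held in each of the 6 fits that left out 1 of the 6 arrays: Sox2, Skor1, Slc2a3, Fry and Hsd17b7 among the falls, and Adh1, Cma1 and Serpinb1a among the rises. With the mean of a gene's probe sets in place of the brightest, 47 of the 63 were still called, but not Hsd17b7 (-0.50, adjusted p = 0.058), Slc2a3 (-0.91, 0.0767) or Fry (-0.25, 0.445).

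**Figure D1:**
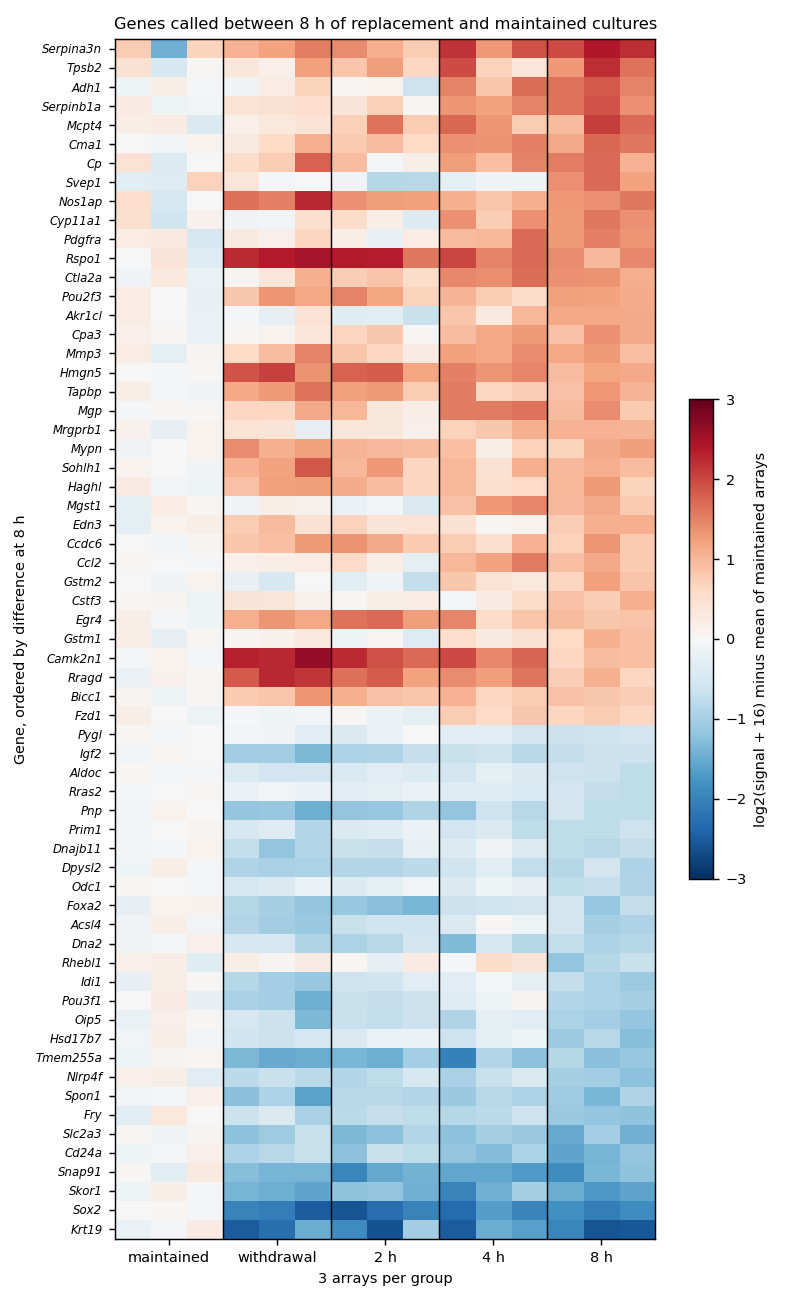
The 63 genes called between 8 h of replacement and maintained cultures (rows, from the largest rise to the largest fall) on all 15 arrays (columns, 3 per group), coloured by log2(signal + 16) minus the mean of the maintained arrays. Sox2, Krt19 and Snap91 were already blue at withdrawal and stayed so, Rspo1 and Camk2n1 were reddest at withdrawal, and Adh1, Serpinb1a and Pdgfra turned red at 4 and 8 h.

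Several GDNF-regulated genes stood well above their withdrawal signal at 8 h, and 1 was called lower than in maintained cultures. This list of 8 genes was named by the laboratory from work that drew on these arrays, so its direction on withdrawal is not independent evidence. On withdrawal 6 of the 8 were lower, beside 3.83% of all genes, and at 8 h 5 were higher than at withdrawal, beside 1.3%. Against maintained cultures 1 of 8, Pou3f1, remained lower, beside 0.206% of all genes. The median log2 difference of the list was -0.45 at 8 h after -1.76 at withdrawal, beside 0.06 for all genes at both points. Bcl6b, a transcriptional repressor needed for self-renewal, read 728, 465 and 696 on the maintained arrays, 96.4, 66.0 and 116 after withdrawal, and 374, 523 and 438 at 8 h. The 8 h arrays overlapped the maintained ones in part, and the log2 difference of -0.47 had a 95% interval of -0.97 to 0.02 (adjusted p = 0.31). Etv5, an ETS factor, read 1486, 747 and 1090 in maintained cultures and 966, 1188 and 1103 at 8 h, a difference of 0.02 (-0.45 to 0.49), after a fall to between 297 and 434 on withdrawal. Etv5 turned slightly negative (-0.13) with arrays shifted to 1 median, so it has no direction. Lhx1, a LIM homeobox factor, read 403, 547 and 503 in maintained cultures and 372, 303 and 343 at 8 h (-0.49, interval -0.92 to -0.05, adjusted p = 0.25). Egr2, an immediate-early zinc finger factor, read 876, 1097 and 1046 against 731, 706 and 792 at 8 h (-0.43, interval -0.83 to -0.02, adjusted p = 0.27). For both, all 3 arrays at 8 h lay under all 3 maintained arrays, but the difference missed the threshold, and the groups were apart in 26.6% of all genes.

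Pou3f1, a POU domain factor of the same list, did not follow that course. Its signal was 376, 447 and 314 in maintained cultures, 183, 177 and 126 after withdrawal, 283, 335 and 396 at 4 h, and 196, 187 and 180 at 8 h. The 4 h arrays thus overlapped the maintained ones, while at 8 h all 3 arrays were well below it, 1.92-fold lower than maintained (log2 -0.94, SE 0.16, adjusted p = 0.0115). The call was lost without maintained replicate 2 or without replicate 2 or 3 of the 8 h group (adjusted p up to 0.0819), and a second, dimmer Pou3f1 probe set was at -0.19 with no call. Cxcr4, the chemokine receptor that holds stem cells in their niche, read 408, 427 and 346 in maintained cultures, 85.1, 80.2 and 65.9 at withdrawal and 239, 151 and 231 at 8 h. All 8 h arrays lay between those of these 2 groups, but 8 h and maintained arrays were apart in 26.6% of all genes. The difference of Cxcr4 from maintained cultures was -0.90 (interval -1.38 to -0.42, adjusted p = 0.0747), which passed the threshold without withdrawal replicate 3 (adjusted p = 0.049). Egr3 (0.48) and Tspan8 (0.16), a surface marker of stem cells, were not called at withdrawal or at 8 h. Another Tspan8 probe set averaged 164 in maintained cultures and 86.6 at 8 h (-0.77, interval -1.26 to -0.28). It was not called by limma (adjusted p = 0.17), and the dimmest Tspan8 probe set was at 0.07. The Tspan8 probe sets thus differ in sign, so Tspan8 has no direction here.

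Id4, a stem cell marker of the ID family, which block helix-loop-helix factors, was partway back. Its signal was 1119, 1527 and 1258 in maintained cultures, 422, 400 and 263 at withdrawal, and 856, 605 and 780 at 8 h, with no overlap between any of these groups. The 8 h and maintained groups were apart in 26.6% of all genes. The remaining difference was -0.79 (interval -1.17 to -0.41), just outside the threshold (adjusted p = 0.0561) and inside it without withdrawal replicate 3 (adjusted p = 0.0156). Gfra1, which encodes the co-receptor, read 1436, 1425 and 1628 in maintained cultures and 1086, 1066 and 1026 at 8 h (-0.49, interval -0.91 to -0.07, adjusted p = 0.23). Ret, the signalling receptor, varied widely between maintained arrays, from 410 to 905, and its difference of 0.40 had an interval of -0.31 to 1.12. A second, nearly as bright Ret probe set was at -0.43 (-0.85 to -0.01), so Ret has no direction here. Zbtb16, a repressor of undifferentiated spermatogonia, was at 0.38 (-0.05 to 0.80) and Pou5f1, a pluripotency factor, at -0.07 (-0.37 to 0.24). The differentiation markers Kit, a receptor of differentiating spermatogonia, and Stra8, a retinoic acid target, were at 0.44 (0.12 to 0.75, adjusted p = 0.16) and 0.26 (-0.27 to 0.78), without a call.

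**Figure D2:**
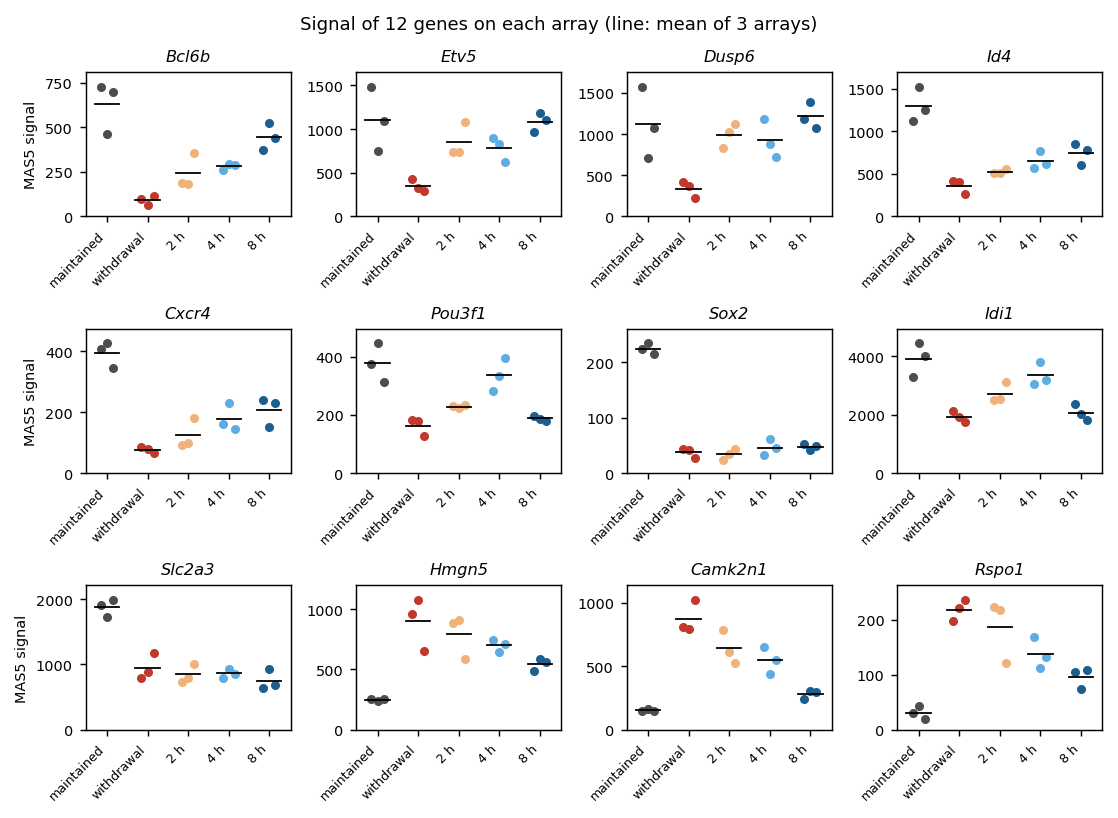
MAS5 signal (y axis, linear, from 0) of 12 genes on each array in the 5 groups (x axis). Points are arrays and lines the mean of 3. Bcl6b, Etv5 and Dusp6 climbed back toward maintained signal, Pou3f1 and Idi1 were higher at 4 h than at 8 h, Sox2 and Slc2a3 stayed near their withdrawal signal, and Hmgn5, Camk2n1 and Rspo1 came down from a high at withdrawal.

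Of 39 ERK immediate-early and feedback genes tested, 25 were lower and 1 higher on withdrawal, beside 3.83% and 4.21% of all genes. At 8 h 16 were higher than at withdrawal, beside 1.3% of all genes. Against maintained cultures none was lower and 1 was higher, beside 0.206% and 0.275% of all genes. Still, 25 of the 39 differences from maintained cultures were negative, beside 5422 of all 13083 genes. At an unadjusted limma p under 0.05, 8 were lower and 4 higher, beside 17% of all genes in either direction. The furthest below maintained cultures were Atf3, a stress factor, at -1.04, Spry2 at -0.99 and Trib1, a pseudokinase, at -0.93 (adjusted p = 0.104, 0.0805 and 0.106). The median difference of the list from maintained cultures went from -0.72 at withdrawal to -0.13 at 8 h. Without withdrawal replicate 3 the same counts were 20 lower on withdrawal, 14 higher at 8 h than at withdrawal, and 1 higher against maintained cultures. Dusp6, a phosphatase that switches off ERK, read 1576, 712 and 1080 in maintained cultures, 420, 364 and 229 at withdrawal and 1187, 1386 and 1075 at 8 h. Spry4, a feedback inhibitor of receptor tyrosine kinases, read 436, 256 and 354, then 126, 93.6 and 113, and then 398, 332 and 368. In both genes the 8 h arrays fell within the maintained range and did not overlap the withdrawal arrays (0.18, interval -0.36 to 0.72, and 0.09, interval -0.32 to 0.51, against maintained cultures). Spry2, a relative of Spry4, read 618, 1176 and 985 in maintained cultures but 497, 403 and 435 at 8 h. The 1 member called higher was Egr4, an immediate-early zinc finger gene that the undifferentiated list also holds, at 889, 804 and 833 against 514, 438 and 416 (1.82-fold, log2 0.87, adjusted p = 0.0487). It had been high at withdrawal, at 978, 1171 and 1040, and its call held in 1 of the 6 fits that left out an array, with an adjusted p of up to 0.181.

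Sox2, a pluripotency factor that undifferentiated spermatogonia transcribe, had not come back. It read 224, 235 and 214 in maintained cultures, 44.0, 41.4 and 26.6 at withdrawal, 23.6, 33.6 and 44.2 at 2 h, 32.3, 60.8 and 44.6 at 4 h, and 51.6, 41.1 and 49.3 at 8 h. The highest of these later arrays, 60.8, was far under the lowest maintained array, 214, and at 8 h the difference was 3.80-fold (log2 -1.93, SE 0.22, adjusted p = 0.000822), while 8 h and withdrawal differed by 0.26 (interval -0.19 to 0.72). Of 13 pluripotency genes tested, Sox2 was the 1 called at 8 h, beside 0.206% of all genes called lower. Tcl1, a co-activator of AKT that had fallen to between 519 and 670 on withdrawal, read 1264, 1168 and 1159 at 8 h against 1216, 1156 and 1319 in maintained cultures (-0.04, interval -0.35 to 0.28). Among 13 genes of differentiating spermatogonia 1 was called higher, beside 0.275% of all genes. This was Sohlh1, a helix-loop-helix factor that drives differentiation, at 199, 220 and 193 against 103, 92.8 and 86.7 (2.00-fold, log2 1.00, adjusted p = 0.0495). It had read 211, 236 and 385 at withdrawal, and its call held in 1 of the 6 fits that left out an array (adjusted p up to 0.184). No gene was called among 14 of germ cell identity (median -0.02) or 12 of meiotic and haploid germ cells (median -0.09) by limma. At an unadjusted p under 0.05 there were 3 and 1, beside 17% of all genes, and the sign of the first median turns with quantile normalization (0.05). Of 33 genes of undifferentiated spermatogonia 1, Egr4, was called higher, beside 0.275% of all genes. The list's median of 0.01 was -0.13 with arrays shifted to 1 median.

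Genes of cholesterol synthesis and uptake, which SREBP2 controls as a group, had mostly negative differences from maintained cultures at 8 h, with few calls. Of 20 tested, 13 were lower on withdrawal, beside 3.83% of all genes. At 8 h 1, Msmo1, was higher than at withdrawal, beside 1.3% of all genes. Against maintained cultures 2, Idi1 and Hsd17b7, were lower at 8 h, beside 0.206%. The differences from maintained cultures at 8 h were negative in 19 of 20, beside 5422 of all 13083 genes. They ran from -1.06 to -0.002 (Tm7sf2, a sterol reductase), with Ebp, a sterol isomerase, at 0.33. The median of the 20 was -0.55, against -0.71 at withdrawal and 0.06 over all genes at 8 h. At an unadjusted limma p under 0.05, 17 of the 20 were lower at 8 h and 0 higher, beside 17% of all genes in either direction. Without withdrawal replicate 3, 6 of 20 were called lower at 8 h, beside 1.08% of all genes, and none was called between 8 h and withdrawal. Idi1, the isomerase of the isoprenoid building blocks, read 3282, 4453 and 3997 in maintained cultures, 2133, 1916 and 1749 at withdrawal, 3038, 3810 and 3203 at 4 h and 2362, 2016 and 1815 at 8 h. It was 1.88-fold lower than maintained at 8 h (log2 -0.91, SE 0.15, adjusted p = 0.0108), with a second probe set at -0.87, and the call was lost without replicate 2 or 3 of either group (adjusted p up to 0.0770). Hsd17b7, which reduces the 3-keto group of sterol intermediates, read 358, 429 and 360 in maintained cultures, 245, 237 and 258 at withdrawal, 243, 309 and 349 at 4 h and 172, 208 and 147 at 8 h. It was 2.09-fold lower at 8 h (log2 -1.06, SE 0.15, adjusted p = 0.00377), although 3 further probe sets of the gene, at -0.70, -0.23 and 0.00, were not called. In both genes all 4 h arrays lay above all 8 h arrays, a step that was not tested. The same order of means held for Hmgcs1, the first committed step, at 9849 in maintained cultures, 9130 at 4 h and 6537 at 8 h, and for Msmo1, a sterol methyl oxidase, at 2375, 2014 and 1425 (8 h against maintained -0.73, adjusted p = 0.054).

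The 250 bases before the start of both called genes are shown because members of the list moved together and sterol promoters are known to pair SREBP sites with boxes bound by the factor NF-Y. They are taken from RefSeq on build GRCm38.p6, 5' to 3' on the strand of the gene, with every CCAAT on either strand in capitals (as ATTGG where it lies on the other strand).
Idi1, chr13:8885356-8885605, plus strand: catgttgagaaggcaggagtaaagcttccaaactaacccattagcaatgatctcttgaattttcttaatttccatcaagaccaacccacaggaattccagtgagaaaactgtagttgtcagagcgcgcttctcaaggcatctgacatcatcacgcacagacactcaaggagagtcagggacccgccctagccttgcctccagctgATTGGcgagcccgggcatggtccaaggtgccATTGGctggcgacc
Hsd17b7, chr1:169969206-169969455, minus strand: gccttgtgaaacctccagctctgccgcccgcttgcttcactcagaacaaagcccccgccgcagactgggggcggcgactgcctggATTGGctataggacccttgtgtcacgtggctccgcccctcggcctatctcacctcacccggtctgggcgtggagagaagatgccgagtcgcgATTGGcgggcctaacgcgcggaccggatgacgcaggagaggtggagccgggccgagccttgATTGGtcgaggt
Idi1 held 2 matches, 45 and 14 bases before the start, and Hsd17b7 held 3, at 165, 73 and 12 bases, all 5 on the opposite strand. Of the 24 listed sterol genes 16 were in the RefSeq table, and 15 of these had a CCAAT in that window, against 33.8% of all 32851 windows of 250 bases. A match describes the sequence and is not a site.

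G1/S genes also had mostly negative differences from maintained cultures at 8 h. Of 30 tested, 28 differences were negative, beside 5422 of all 13083 genes, and the median was -0.39, after -0.32 at withdrawal. At an unadjusted limma p under 0.05, 17 were lower and 1 higher, beside 17% of all genes in either direction. Of these genes 1 was called, lower, beside 0.206% of all genes. Without withdrawal replicate 3, 6 were called lower, beside 1.08%. The called gene was Prim1, the catalytic subunit of primase, at 524, 524 and 576 against 848, 887 and 950 (1.63-fold lower, log2 -0.71, adjusted p = 0.0282), with a second probe set at -1.16. Its call held only without maintained replicate 1 among the 6 fits that left out an array (adjusted p up to 0.160). Rrm2, a subunit of ribonucleotide reductase, read 1595, 3099 and 1834 in maintained cultures and 1145, 815 and 879 at 8 h, a difference of -1.14 (adjusted p = 0.0806). Ccne1, which encodes cyclin E1, read 353, 448 and 437 and then 262, 170 and 210 (-0.91, adjusted p = 0.0841). For both, no 8 h array reached the lowest maintained array, but the groups were apart in 26.6% of all genes. Dna2, a nuclease and helicase of replication outside the list, was lower at 260, 227 and 238 against 415, 429 and 499 (log2 -0.85, adjusted p = 0.0487), and so was Oip5, a factor for loading centromeric histone, at 108, 102 and 90.6 against 192, 250 and 229 (log2 -1.04, adjusted p = 0.0297). Dna2 and Oip5 each kept the call in 1 of the 6 fits that left out an array (adjusted p up to 0.194). None of 22 G2/M genes was called by limma (median -0.11, 4 lower at an unadjusted p under 0.05, beside 17% of all genes in either direction).

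Transcripts of a glucose transporter had not returned, while those of a hexokinase were near maintained signal. Slc2a3, which encodes the high-affinity glucose transporter GLUT3, read 1917, 1734 and 1991 in maintained cultures, 794, 883 and 1171 at withdrawal and 644, 922 and 683 at 8 h. At 8 h it was 2.50-fold lower than maintained (log2 -1.32, SE 0.17, adjusted p = 0.00142), with another probe set at -1.37 that was also called and 2 dim ones at -0.44 and -0.51 that were not. Hk2, the hexokinase that phosphorylates glucose, read 1071, 952 and 961, fell to between 443 and 517 on withdrawal, and stood at 836, 1005 and 861 at 8 h (-0.14, interval -0.45 to 0.16). Slc2a3 was the 1 called of 14 glycolysis genes, beside 0.206% of all genes called lower, and the median of the list was -0.33. Aldoc, an aldolase, was lower outside the list at 577, 571 and 528 against 946, 884 and 875 (log2 -0.67, adjusted p = 0.0108), and Pygl, a glycogen phosphorylase, at 438, 446 and 468 against 709, 676 and 687 (log2 -0.60, adjusted p = 0.0487). Odc1, the first enzyme of polyamine synthesis and a MYC target, read 601, 632 and 550 against 1079, 1034 and 998 (1.73-fold lower, log2 -0.79, adjusted p = 0.0108), with other probe sets at -0.67 and 0.00 that were not called. It was the 1 called of 26 ribosome biogenesis and MYC target genes (median -0.07), beside 0.206% of all genes called lower. Aldoc and Odc1 kept the call in 3 and 4 of the 6 fits that left out an array, and Pygl in none.

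The other large falls were of single genes outside the lists, and several, such as Skor1, already lay near their 8 h signal at withdrawal. Skor1, a transcriptional corepressor of neurons, read 129, 170 and 143 in maintained cultures, 46.1, 43.2 and 38.4 at withdrawal and 42.1, 33.2 and 38.6 at 8 h (3.02-fold lower, log2 -1.59, adjusted p = 0.00362). Snap91, a clathrin assembly protein of synapses, read 144, 107 and 174 and then 26.4, 43.6 and 50.9 at 8 h (log2 -1.49, adjusted p = 0.00644). Cd24a, a small surface glycoprotein, fell from 74.2, 80.6 and 94.7 to 16.9, 21.6 and 27.8 (log2 -1.38, adjusted p = 0.0084), a signal under the filter for dim probe sets of 30.5, so that its fold depends on the constant of 16. Spon1, a matrix protein of axon guidance, was at 99.0, 76.1 and 111 against 210, 214 and 249 (log2 -1.12), Tmem255a, a membrane protein, at 113, 81.2 and 90.8 against 195, 233 and 226 (log2 -1.08), and Nlrp4f, an NLR protein of germ cells, at 58.5, 56.9 and 48.0 against 150, 153 and 104 (log2 -1.09). Fry, a protein of cell shape and the spindle, was at 128, 124 and 120 against 237, 374 and 299 (log2 -1.17, adjusted p = 0.00362), but 3 dimmer Fry probe sets were not called and lay between -0.12 and 0.25. Igf2, a growth factor, had risen in part, from 775, 777 and 633 at withdrawal to 992, 1033 and 1028, still under 1547, 1696 and 1638 (log2 -0.67, adjusted p = 0.0185). Among these, Snap91 and Cd24a lost the call without maintained replicate 3 (adjusted p up to 0.0561), and Spon1, Nlrp4f, Tmem255a and Igf2 lost it in 2, 3, 5 and 5 of the 6 fits that left out an array.

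Rhebl1 and Rras2 had not been called lower at withdrawal. Rhebl1, a RHEB-like GTPase, read 357, 372 and 245 in maintained cultures, 363, 341 and 384 at withdrawal, 312, 475 and 419 at 4 h and 132, 168 and 196 at 8 h. It was 1.87-fold lower than maintained cultures at 8 h (log2 -0.90, adjusted p = 0.0452) and lower than at withdrawal (log2 -1.07, adjusted p = 0.00689). Rras2, a RAS family GTPase, read 688, 713 and 733 in maintained cultures, 613, 670 and 628 at withdrawal, 556, 587 and 623 at 2 h, 537, 545 and 514 at 4 h and 471, 425 and 416 at 8 h (log2 -0.68, adjusted p = 0.0084). Its withdrawal arrays already lay under all maintained arrays (log2 -0.16, adjusted p = 0.401), and its second probe set was at -0.36 with no call. In both genes all 3 arrays at 8 h lay below every array of the other groups named here. Rhebl1 kept its call in 1 and Rras2 in 3 of the 6 fits that left out an array.

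Several genes that withdrawal had raised were still above maintained signal at 8 h. Rspo1, a secreted enhancer of WNT signalling, read 29.4, 43.6 and 19.0 in maintained cultures, 198, 221 and 237 at withdrawal and 106, 73.9 and 108 at 8 h. It was 2.43-fold higher than maintained (log2 1.28, SE 0.23, adjusted p = 0.0185) and had fallen by 1.08 on the log2 scale since withdrawal (adjusted p = 0.0216). Camk2n1, an inhibitor of CaM kinase II, read 145, 164 and 148, then 811, 791 and 1023, and then 243, 302 and 297 at 8 h (1.76-fold higher than maintained, log2 0.81, adjusted p = 0.0370). Rragd, a GTPase of nutrient sensing by mTORC1, read 226, 280 and 266, then 959, 1282 and 1196, and then 438, 550 and 405 (log2 0.81, adjusted p = 0.0452). Hmgn5, a nucleosome-binding protein, read 251, 241 and 254, then 963, 1079 and 655, and then 487, 584 and 564 (log2 1.08, adjusted p = 0.0108). In these 4 genes every 8 h array lay between the maintained and the withdrawal arrays. Nos1ap, an adaptor of neuronal nitric oxide synthase, read 25.9, 4.20 and 13.7 and then 56.0, 59.6 and 71.3 at 8 h (log2 1.41, adjusted p = 0.0185), with a maintained signal under 30.5, so its fold depends on the constant. Left-out arrays cost Rspo1 the call in 3, Hmgn5 in 3, Nos1ap in 5 and Camk2n1 and Rragd in all 6 fits (adjusted p up to 0.190). Of 21 FOXO target genes, a class that AKT signalling holds down, 5 were higher on withdrawal, beside 4.21% of all genes, and 0 at 8 h by limma. At 8 h 4 were higher at an unadjusted p under 0.05, beside 17% of all genes in either direction, and 1 was called higher without withdrawal replicate 3. The sign of the list's median of 0.11 at 8 h depends on the scaling. No gene was called at 8 h by limma among 16 ligands and receptors of the GDNF and FGF families, 20 genes of the amino acid and ATF4 response, 15 of p53 and apoptosis or 12 of the interferon response. At an unadjusted p under 0.05 there were 4, 6, 1 and 1, beside 17% of all genes.

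**Figure D3:**
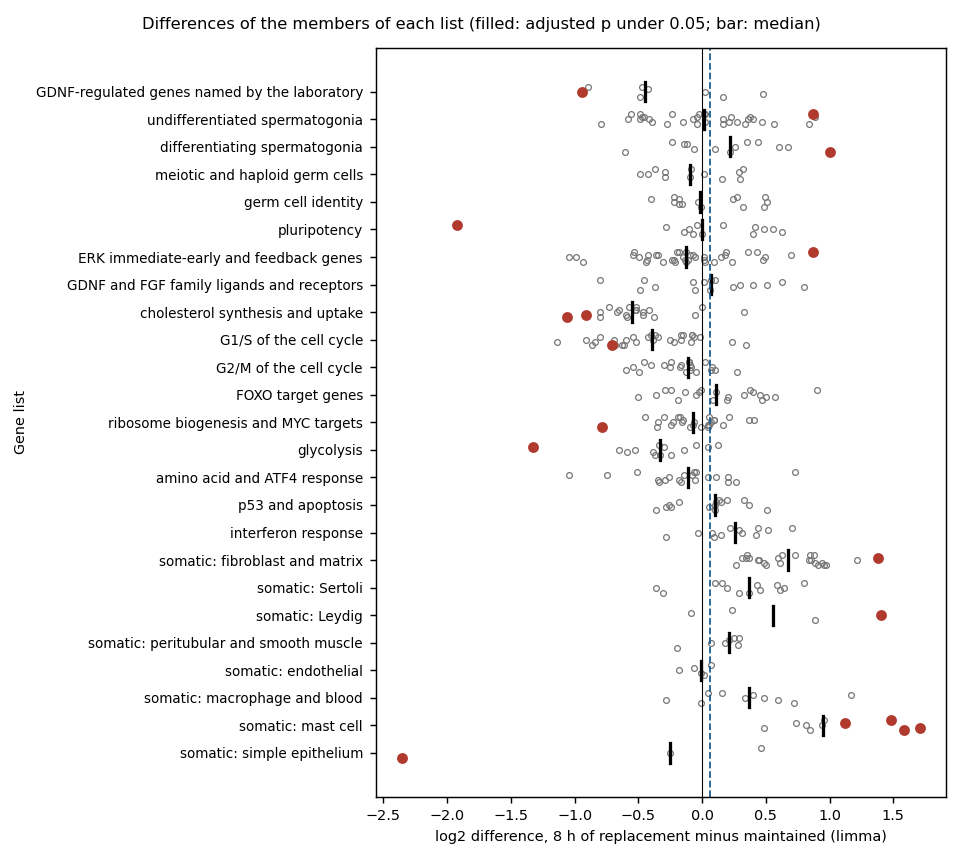
Log2 difference between 8 h of replacement and maintained cultures (x axis) of every tested gene in 25 lists (y axis). Filled points had an adjusted p under 0.05, black bars are list medians and the dashed line is the median of all 13083 genes, 0.06. Cholesterol and G1/S genes lay to the left, with medians of -0.55 and -0.39, and fibroblast and mast cell markers lay to the right, with 24 of 24 and 10 of 10 members above 0.

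Markers of other cell types made up part of the rises. Of 113 genes in 8 lists of somatic markers 76 were tested. Of these 76, 7 were among the 63 called genes, 6 higher and 1 lower, beside 0.275% and 0.206% of all genes. Mast cell genes stood furthest from maintained cultures. All 10 tested members were positive, beside 7661 of all 13083 genes, with a median of 0.95, and 4 of the 10 were called higher, beside 0.275% of all genes. At an unadjusted limma p under 0.05, 9 were higher and 0 lower, beside 17% of all genes in either direction. Cma1, a mast cell chymase, read 320, 301 and 345 in maintained cultures, 391, 496 and 701 at withdrawal, 863, 841 and 945 at 4 h and 724, 1100 and 992 at 8 h (2.79-fold higher than maintained, log2 1.48, SE 0.18, adjusted p = 0.00142). Mcpt4, another chymase, read 379, 393 and 238 and then 655, 1444 and 1105 at 8 h (2.99-fold, log2 1.58, SE 0.30, adjusted p = 0.0202). Cpa3, the carboxypeptidase of mast cell granules, read 615, 568 and 474 and then 1017, 1439 and 1226 (2.18-fold, log2 1.12, SE 0.19, adjusted p = 0.0108). Tpsb2, a tryptase, read 221, 107 and 159 and then 411, 779 and 512 (3.28-fold, log2 1.71, SE 0.37, adjusted p = 0.0487). In these 4 genes the groups did not overlap, which held for all 63 called genes and so adds nothing to the call. Fcer1a and Ms4a2, the alpha and beta chains of the IgE receptor, were positive but not called (0.94, adjusted p = 0.0604, and 0.85, adjusted p = 0.0794). Both passed without withdrawal replicate 3, when 6 of 10 were called higher, beside 1.03% of all genes. Mcpt1, Mcpt8 and Hdc, the histidine decarboxylase of histamine synthesis, lay under the filter for dim probe sets. The summed signal of all 13 mast cell genes was 1646 to 2063 in maintained cultures, 2131 to 2826 at withdrawal, 2486 to 3686 at 2 h, 4001 to 4496 at 4 h and 3685 to 5757 at 8 h, so the lowest 8 h array was above the highest maintained one. Cma1, Mcpt4, Cpa3 and Tpsb2 averaged 938, 1068, 1227 and 567 of the mean sum of 4711 at 8 h. The sum thus largely restates these 4 calls. Mrgprb1, a receptor known from connective tissue mast cells and not in the list, was higher too, at 97.8, 98 and 96.4 against 45.1, 30.9 and 44.0 (2.04-fold, log2 1.03, adjusted p = 0.0297). Cma1 kept the call in all 6 fits that left out an array, Cpa3 in 3, Mcpt4 in 2 and Tpsb2 and Mrgprb1 in 1 (adjusted p up to 0.196).

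**Figure D4:**
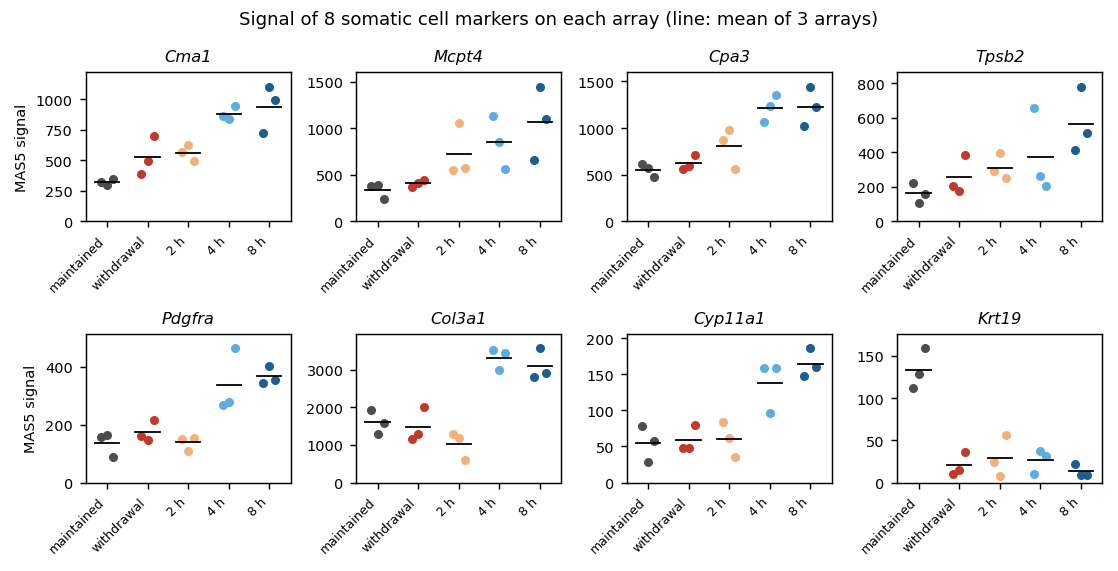
MAS5 signal (y axis, linear, from 0) of 8 somatic markers on each array in the 5 groups (x axis), with lines at the mean of 3 arrays. Cma1, Mcpt4, Cpa3, Pdgfra, Col3a1 and Cyp11a1 had higher means at 4 and 8 h than in maintained cultures, while Krt19 fell on withdrawal and averaged 13.5 at 8 h against 133 in maintained cultures.

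The 250 bases before the start of 3 of the 4 called mast cell genes are shown because the 4 moved together and GATA factors are known to control mast cell proteases. They are given in the same form, with GATAA on either strand in capitals (TTATC on the other strand).
Cma1, chr14:55944676-55944925, minus strand: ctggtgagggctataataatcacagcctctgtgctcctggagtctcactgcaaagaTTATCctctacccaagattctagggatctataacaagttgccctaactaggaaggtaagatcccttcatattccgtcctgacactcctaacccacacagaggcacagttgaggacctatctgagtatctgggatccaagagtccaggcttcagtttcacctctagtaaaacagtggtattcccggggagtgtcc
Mcpt4, chr14:56062311-56062560, minus strand: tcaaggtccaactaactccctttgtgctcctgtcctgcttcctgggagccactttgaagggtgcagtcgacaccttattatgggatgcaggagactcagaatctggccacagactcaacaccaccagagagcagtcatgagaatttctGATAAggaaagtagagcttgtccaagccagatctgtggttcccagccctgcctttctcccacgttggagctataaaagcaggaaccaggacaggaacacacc
Cpa3, chr3:20242182-20242431, minus strand: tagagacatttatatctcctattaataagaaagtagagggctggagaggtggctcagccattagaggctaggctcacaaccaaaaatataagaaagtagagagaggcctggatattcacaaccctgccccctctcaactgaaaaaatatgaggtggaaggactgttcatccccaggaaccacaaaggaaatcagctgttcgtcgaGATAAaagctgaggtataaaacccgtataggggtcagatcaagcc
Each held 1 match, 194, 102 and 45 bases before the start of Cma1, Mcpt4 and Cpa3. Of the 13 listed mast cell genes 10 were in the RefSeq table and 6 of them had the motif in that window, against 22.6% of all windows. Gata2, the GATA factor of the list, was at 0.49 with an adjusted p of 0.16.

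Fibroblast and matrix genes leaned the same way. All 24 tested were positive at 8 h, beside 7661 of all 13083 genes, with a median of 0.68. At an unadjusted limma p under 0.05, 16 were higher and 0 lower, beside 17% of all genes in either direction. Of the 24, 1 was called higher, beside 0.275% of all genes, Pdgfra, the PDGF receptor of mesenchymal cells. It read 156, 164 and 87.6 in maintained cultures, 162, 147 and 215 at withdrawal, 267, 278 and 463 at 4 h and 343, 404 and 356 at 8 h (2.60-fold, log2 1.38, SE 0.23, adjusted p = 0.0108). Its 8 h arrays all lay above the maintained ones, as the groups of all 63 called genes were apart. The 2 other Pdgfra probe sets were at 0.64 and 0.35 with no call, and the call was lost without maintained replicate 3 or replicate 2 or 3 of the 8 h group (adjusted p up to 0.0763). Col3a1, a fibrillar collagen, read 1930, 1280 and 1596 and then 2801, 3567 and 2905 (0.95, interval 0.43 to 1.47, adjusted p = 0.0831), Vim, an intermediate filament protein, was at 0.62 (0.13 to 1.12) and Fn1, fibronectin, at 0.59 (0.19 to 1.00). Mmp2, a gelatinase, read 202, 139 and 141 and then 301, 504 and 388 (1.22, adjusted p = 0.0644). Without withdrawal replicate 3, 6 of 24 were called higher, beside 1.03% of all genes. The summed signal of 27 listed genes was 12912 to 17904 in maintained cultures, 12521 to 20379 at withdrawal, 8280 to 13992 at 2 h, 22603 to 27682 at 4 h and 21721 to 27831 at 8 h. The 4 h and 8 h arrays thus stood apart from the earlier ones, with an 8 h mean 1.61 times the maintained mean.

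Of 4 Leydig cell genes tested 1 was called higher, beside 0.275% of all genes. Cyp11a1, which makes pregnenolone from cholesterol, read 78.2, 28.8 and 57.5 in maintained cultures, 47.4, 48.1 and 79.1 at withdrawal, 159, 96.8 and 159 at 4 h and 147, 186 and 160 at 8 h (2.65-fold, log2 1.41, SE 0.28, adjusted p = 0.0342). It kept the call in 1 of the 6 fits that left out an array (adjusted p up to 0.160). Star, which carries cholesterol into mitochondria, was at 0.23 with no call by the probe set that stands for the gene, while of its 2 dimmer probe sets 1 was called at 1.11 and 1 was not (1.19). Nr5a1, the nuclear receptor of steroid-making cells, was at 0.88 (adjusted p = 0.114) and Gramd1b, a sterol transfer protein, at -0.09, neither called. Of the 12 Leydig genes on the list the defining enzymes Cyp17a1, Hsd3b1 and Hsd17b3 were under the filter, between 4.10 and 60.2 on any array. Hsd3b1 read 8.70, 24.5 and 32.4 in maintained cultures and 45.9, 51.5 and 51.4 at 8 h, a difference that was not tested, while Cyp17a1 and Hsd17b3 overlapped between these groups. The summed signal was 333 to 431 in maintained cultures and 448 to 629 at 8 h.

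The other somatic lists moved less, and no sum given here was rescaled for the higher median signal of the 8 h arrays. None of 13 Sertoli genes was called by limma at 8 h (5 higher at an unadjusted p under 0.05, beside 17% of all genes in either direction, 1 called without withdrawal replicate 3). The list's summed signal was 966 to 1107 in maintained cultures and 1282 to 1455 at 8 h. Its brightest members Clu, Rhox5 and Kitl, the KIT ligand, were at 0.46, 0.59 and 0.80 (adjusted p = 0.248, 0.136 and 0.0842), and Amh, Cldn11, Cst9 and Cst12 were under the filter. The list also holds Sox9, Wt1, Gata4 and Fshr, none of which was called or under the filter. Differences of the 13 tested ran from -0.36 to 0.80, 11 positive and 2 negative. None of 10 macrophage and blood genes was called (2 higher at an unadjusted p under 0.05, beside the same 17%), with sums of 718 to 931 and 889 to 1077, and Laptm5, Csf1r and Tyrobp were at 0.40, 0.34 and 0.72. None of 7 peritubular and smooth muscle genes was called, nor had any an unadjusted p under 0.05, with sums of 985 to 1137 and 1150 to 1391. Acta2, Tpm1 and Tpm2 lay between 0.25 and 0.29, and Myh11, Tagln and Cnn1 were under the filter. Endothelial genes, with sums of 460 to 497 and 426 to 536, overlapped between the groups and none of 5 was called or had an unadjusted p under 0.05, Kdr, Flt1 and Cldn5 being at -0.18, 0.01 and -0.01, with Pecam1, Tek and Vwf under the filter. Of 3 simple epithelium genes tested 1, the keratin Krt19, was called, and it was lower, beside 0.206% of all genes. It read 112, 128 and 159 in maintained cultures, 10.3, 14.8 and 36.4 at withdrawal and 22.3, 8.70 and 9.40 at 8 h, the furthest fall of all genes tested (5.12-fold, log2 -2.36, SE 0.38, adjusted p = 0.0093), though its 8 h signal was under 30.5. Krt19 averaged 20.5 at withdrawal and 29.4, 26.3 and 13.5 at 2, 4 and 8 h, all under that filter. It thus passed the filter, and could be ranked, only through the maintained arrays, where it was high. It kept the call in 3 of the 6 fits that left out an array, and Krt8 (0.46) and Krt18 (-0.25) were not called.

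**Figure D5:**
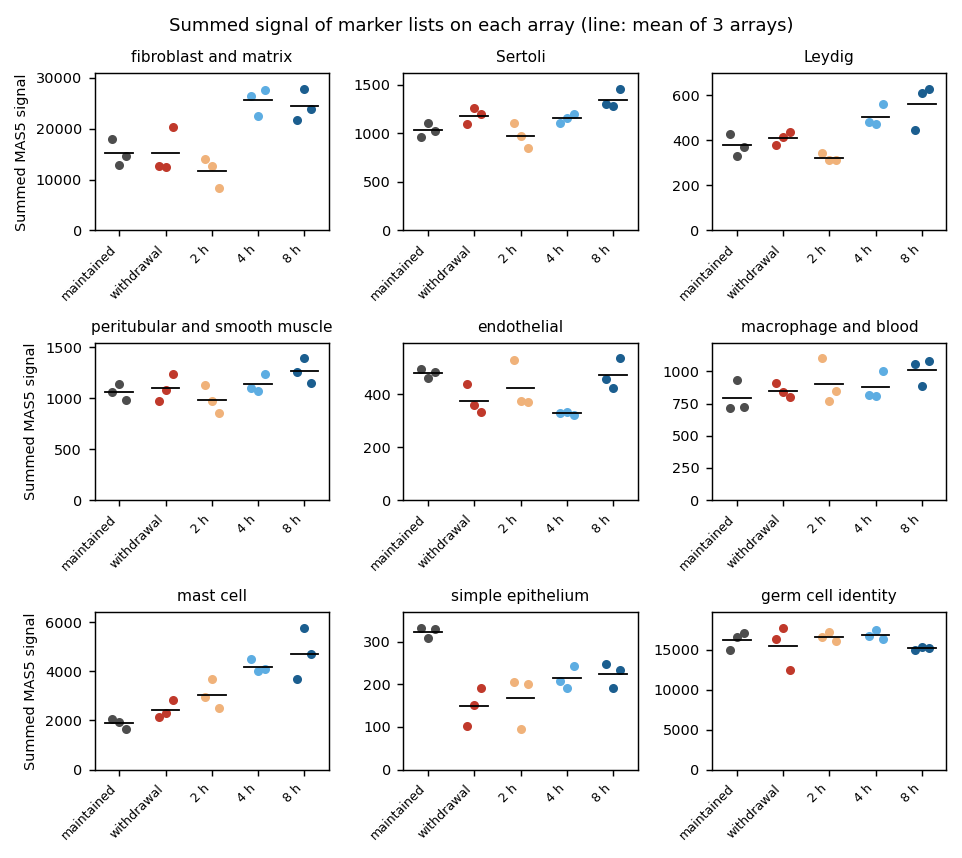
Summed MAS5 signal (y axis, linear, from 0) of 8 somatic marker lists and of the germ cell identity list on each array in the 5 groups (x axis), with lines at the mean of 3 arrays. Mast cell, fibroblast, Leydig, Sertoli and peritubular sums at 8 h lay above all maintained arrays. Their means were 2.51, 1.61, 1.49, 1.31 and 1.20 times the maintained mean. Simple epithelium lay below, at 0.696 times, and germ cell identity, at 0.936 times, overlapped the maintained arrays, as did the other 2 lists.

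Further rises were of genes outside the lists. Adh1, an alcohol dehydrogenase that also oxidises retinol, read 125, 157 and 132 in maintained cultures, 128, 162 and 229 at withdrawal, 415, 259 and 472 at 4 h and 456, 533 and 412 at 8 h (3.14-fold, log2 1.65, SE 0.24, adjusted p = 0.00377). Serpinb1a, an inhibitor of granule serine proteases, read 61.7, 42.3 and 45.3 and then 187, 227 and 153 at 8 h (3.11-fold, log2 1.64, SE 0.19, adjusted p = 0.000822). Serpina3n, a secreted serine protease inhibitor, read 195, 29.7 and 179 in maintained cultures and 462, 637 and 557 at 8 h (4.57-fold, log2 2.19, SE 0.40, adjusted p = 0.0185), but without maintained replicate 2, its lowest array, the difference was 1.48. Cp, ceruloplasmin, read 146, 74.5 and 104 and then 335, 377 and 234 (2.70-fold, log2 1.43, adjusted p = 0.0487), after 160, 189 and 397 at withdrawal. The glutathione transferases Gstm1, Gstm2 and Mgst1 rose 1.81, 1.88 and 1.96-fold (adjusted p = 0.0185, 0.0487 and 0.0185), and so did Ccl2, a chemokine of monocytes, 1.92-fold (adjusted p = 0.0288). Svep1, a matrix protein, was at 92.4, 119 and 80.1 at 8 h against 17.7, 16.1 and 52.2 in maintained cultures and 18.9, 23.1 and 22.5 at 4 h (log2 1.42, adjusted p = 0.0468), with a maintained mean of 28.7 that makes its fold depend on the constant. Its means at withdrawal, 2 h and 4 h, 29.6, 12.6 and 21.5, were also under the filter of 30.5. Svep1 thus passed the filter, and could be ranked, only through the 8 h arrays, where it was high. Adh1 and Serpinb1a kept the call in all 6 fits that left out an array, Serpina3n in 3, Gstm1 and Mgst1 in 2, Cp, Svep1 and Ccl2 in 1 and Gstm2 in none (adjusted p up to 0.201).

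The somatic level moved with the groups themselves. The mean log2 level of the 76 tested somatic genes was 7.18 to 7.30 on the maintained arrays and 7.63 to 7.76 on the 8 h arrays, and 94.9% of its variance over these 6 arrays lay between the groups. With that mean as a covariate in limma, 0 genes were called between 8 h and maintained cultures, 435 had an unadjusted p under 0.05, and the median standard error rose from 0.19 to 0.34. Estimates of some falls changed little, as in Slc2a3 from -1.32 to -1.36, Skor1 from -1.59 to -1.72 and Hsd17b7 from -1.06 to -1.04, and more in others, as in Sox2 from -1.93 to -1.18 and Idi1 from -0.91 to -0.40. Among the rises, Cyp11a1 and Cp went from 1.41 to 0.09 and from 1.43 to 0.06, Serpinb1a from 1.64 to 1.13 and Mcpt4 from 1.58 to 1.39. Krt19 went from -2.36 to -2.02. Cyp11a1, Mcpt4 and Krt19 are themselves among the 76 genes of that mean, so part of any change in their estimates is built in. Because the covariate nearly separates the groups, the part of somatic RNA in any of these differences cannot be told apart from the group by this fit. Summed germ cell identity signal was 14948 to 17171 in maintained cultures and 14967 to 15395 at 8 h, so the groups overlapped.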

How the data were processed

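RNA was measured on 15 single-colour Affymetrix arrays, 3 in each of 5 groups taken from the labels. The deposited values are signal, an intensity on a linear scale, which the authors computed with MAS5 per the submitters' processing notes; its version and scaling are not stated. Judged by the files, each array has a trimmed mean of 150. Signals were used as log2(signal + 16). The dimmest 40% of probe sets (under about 30.5) were left out, and the probe set with the highest mean log2 value stood for a gene, 13083 in all; other probe sets were adjusted over all probe sets. The 4154 probe sets with no or several symbols gave 8 further calls (0.193%). Names came from the platform annotation (34958 of 45101 probe sets with 1 symbol). limma 3.58.1 in R 4.3.3 (lmFit, eBayes with a trend) fitted 5 group means, 10 residual degrees of freedom, with two-sided tests. It was tested on simulated data.

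The genes, 25 lists and comparisons were chosen with earlier results of these data known. The rule named the 12 largest rises and falls among called genes whose groups do not overlap, up to 4 called members of each list (all of the somatic ones), the laboratory's list with Gfra1, Ret, Id4, Zbtb16, Pou5f1, Kit and Stra8, and the 3 brightest members of each somatic list. Other genes were chosen after their values were seen. Alternatives changed the constant, filter, scaling, eBayes options, arrays fitted, weights, probe set rule and somatic covariate.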

Additional observations from a re-analysis of the deposited data

How the results depend on the processing

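The count of 63 genes between 8 h and maintained cultures stayed within 1.5 times under the constants of 4 and 64, filters, both scalings, eBayes options and mean of probe sets (46 to 86), and moved when the fit held only the 2 groups (180), with array weights (1280), with the somatic covariate (0, with 435 at an unadjusted p under 0.05) and without withdrawal replicate 3 (276), an alternative chosen after seeing the data. Leaving out arrays gave 13 to 154. Withdrawal against maintained (1052) moved to 313, and with weights to 2297; leaving out arrays gave 517 to 1014. The 8 h against withdrawal count (313) moved to 121, to 1192 with weights and to 49 with the covariate; leaving out arrays gave 100 to 353. The cause of these shifts was not tested.

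Replicate numbers pair nothing here: same-numbered 8 h and maintained arrays correlated at -0.06, -0.01 and -0.04. With the replicate number as a block the counts were 56, 1121 and 316, and 49 of the 63 genes were kept. It moved no count by over 1.5 times.

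These values changed sign. Etv5 turned to -0.13 with arrays shifted to 1 median, -0.033 with weights and ran from -0.23 to 0.26 without single arrays. Flt1 turned to -0.10 with quantile normalization, -0.14 shifted, -0.046 with weights, -0.39 with the mean of probe sets and -0.26 to 0.25 without single arrays. Cldn5 turned to 0.000701 with the constant of 64, 0.084 with the covariate and ran from -0.18 to 0.11 without single arrays. With the mean of probe sets Gramd1b turned to 0.048 (-0.20 to 0.067 without single arrays), Tspan8 to -0.18 and Ret to -0.013. With the covariate Vim turned to -0.29, Fn1 to -0.25, Col3a1 to -0.30, Rhox5 to -0.12, Star to -0.24, Acta2 to -0.37, Tpm1 to -0.36, Tpm2 to -0.12, Csf1r to -0.057, Krt8 to -0.16, Lhx1 to 0.36, Egr2 to 0.25, Cxcr4 to 0.075 and Gfra1 to 0.094. Vim, Fn1, Col3a1, Rhox5, Star, Acta2, Tpm1, Tpm2, Csf1r, Krt8 and Cldn5 are members of the somatic mean that is the covariate, so their turns are partly built in. Of the other values of single genes under an alternative, 153 lost and 21 gained a call in the same direction.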
